A study of Mus musculus with 2 samples.

Results

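The 64 genes described here encode the receptors and secreted cues of axon guidance, and they were chosen by symbol from 21755 protein-coding genes on chromosomes 1 to 19 and X. They comprised 20 semaphorins, 11 plexins and neuropilins, 12 netrins and netrin receptors, 7 members of the Slit and Robo families, and 14 Eph receptors. The rule used names and no measured value, and it also took in Unc5cl, whose product is a relative of the UNC5 netrin receptors named for its sequence. Chromatin accessibility had been measured by DNase-seq, which maps open chromatin as sites that the enzyme DNase I cuts, in midbrain tissue from healthy B6NCrl mouse embryos at embryonic day 11.5. There was 1 group of 2 biological replicates with embryos of both sexes pooled, both replicates carried the same donor label, and the series had no treated, mutant or input sample. Every value below is therefore a description of that tissue, with no test between conditions.

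Growing axons are steered by cues that they read through receptors at the growth cone. Secreted class 3 semaphorins act through neuropilins together with plexins, and most other semaphorins bind plexins directly. Netrins attract axons through DCC and neogenin and repel them where UNC5 receptors take part, Slit proteins repel axons through Robo receptors at the midline, and Eph receptors read ephrins on neighbouring cells. In the midbrain these systems guide commissural, tectal and dopaminergic axons, and graded Eph receptors and ephrins map retinal axons onto the tectum.

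Each replicate came with its own list of peaks, intervals of 150 bp with a signal value, 305818 in replicate 1 and 454408 in replicate 2 on the chromosomes used. The signal was a whole number between 1 and 148 in replicate 1 and between 1 and 130 in replicate 2, with no stated normalization, so signals were ranked within a list. Peaks were sparser on the X chromosome, with 30.4 per Mb against 122 per Mb on autosomes in replicate 1, and 39.3 per Mb against 182 per Mb in replicate 2. The tissue label was checked against marker genes. A peak lay within 500 bp of a transcription start site (TSS) in both replicates at 8 of 10 midbrain regulators, among them En1, En2 and Otx2, with Fgf8 and Lmx1b reached in replicate 2 only. The same held for 8 of 8 neural progenitor genes and 8 of 8 neuronal genes, against 2 of 8 endothelial, 2 of 8 erythroid, 5 of 8 mesenchymal and 0 of 8 microglial genes. Over all protein-coding genes the share was 65.5%. At genes of like CpG ratio, defined below, it was 97.8% for the midbrain list, 84.9% for progenitor and 81.8% for neuronal genes. It was 59.3% for endothelial, 19.7% for erythroid, 47.0% for mesenchymal and 23.1% for microglial genes. The midbrain, endothelial and microglial lists lay below these shares, and the other lists above them. The part of vascular or mesenchymal cells in the values below was not tested. In bulk tissue, a site open in few cells and a site weakly open in many cells cannot be told apart.

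The sequences below show CpG content at the starts of open members and of members with no TSS peak. Each is the 250 bases before the gene's start in RefSeq on GRCm38.p6, 5′ to 3′ on the gene's strand, with CpG dinucleotides in capitals. Neo1 and Plxnb2 had strong TSS peaks in both replicates, and Unc5cl and Plxnb3 had none. For Sema3a the start shown is the upstream one, which had no peak in replicate 1.
Neo1, chr9:59036442-59036691, minus strand: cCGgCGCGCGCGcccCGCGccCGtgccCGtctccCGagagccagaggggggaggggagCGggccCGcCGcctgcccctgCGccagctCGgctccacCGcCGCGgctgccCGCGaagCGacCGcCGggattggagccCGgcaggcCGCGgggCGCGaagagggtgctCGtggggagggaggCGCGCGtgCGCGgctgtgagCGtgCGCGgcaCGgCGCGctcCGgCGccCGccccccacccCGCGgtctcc
Plxnb2, chr15:89180789-89181038, minus strand: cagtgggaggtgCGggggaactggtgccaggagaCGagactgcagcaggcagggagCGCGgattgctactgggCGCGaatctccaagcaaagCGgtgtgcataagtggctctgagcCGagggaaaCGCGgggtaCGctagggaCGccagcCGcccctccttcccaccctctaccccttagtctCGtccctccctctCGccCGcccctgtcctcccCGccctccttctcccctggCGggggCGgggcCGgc
Sema3a, chr5:13396534-13396783, plus strand: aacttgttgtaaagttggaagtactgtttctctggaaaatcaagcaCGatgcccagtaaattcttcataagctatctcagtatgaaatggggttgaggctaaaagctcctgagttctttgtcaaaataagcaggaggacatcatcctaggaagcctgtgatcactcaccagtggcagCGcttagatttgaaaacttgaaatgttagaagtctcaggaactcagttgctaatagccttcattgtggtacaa
Unc5cl, chr17:48454651-48454900, plus strand: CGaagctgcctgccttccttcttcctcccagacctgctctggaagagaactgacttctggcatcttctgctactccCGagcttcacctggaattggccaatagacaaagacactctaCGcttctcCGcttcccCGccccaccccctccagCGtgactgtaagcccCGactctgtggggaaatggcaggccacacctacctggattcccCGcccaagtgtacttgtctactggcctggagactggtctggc
Plxnb3, chrX:73756853-73757102, plus strand: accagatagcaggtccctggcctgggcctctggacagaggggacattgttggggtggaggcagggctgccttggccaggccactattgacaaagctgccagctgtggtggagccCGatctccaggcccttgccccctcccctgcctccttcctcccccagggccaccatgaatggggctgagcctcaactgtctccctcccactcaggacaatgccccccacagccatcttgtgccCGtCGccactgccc
The Neo1 stretch held 45 CpG dinucleotides and that of Plxnb2 held 20. The stretches of Unc5cl, Plxnb3 and Sema3a held 8, 3 and 2. The highest count of any matched member was 46, at Epha8, which had no TSS peak in replicate 1 and a signal of 32 in replicate 2. RefSeq promoters were matched for 55 of the 64 members, and 49 of the matched promoters lay within 500 bp of the GENCODE start. Over the 44 of these whose gene was open in both replicates, the count ran between 2 and 45 CpG with a median of 16.5. The lowest count, 2, was found at the first starts of Sema3a and Sema4a. Those starts were not themselves open in both replicates, and each gene was open at a start further downstream.

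The 5 distal sites with the highest mean rank of signal among all distal sites of the members are shown next, as the 150 bases around the midpoint on mm10. Capitals mark matches on either strand to the short motifs that were searched, described with the distal sites below, other than the general E-box.
Ephb2 site, chr4:136755566-136755715, plus strand: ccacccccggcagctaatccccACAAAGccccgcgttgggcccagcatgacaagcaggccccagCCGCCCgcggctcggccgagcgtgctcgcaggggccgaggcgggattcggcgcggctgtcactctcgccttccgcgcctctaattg
Sema3b site, chr9:107612756-107612905, plus strand: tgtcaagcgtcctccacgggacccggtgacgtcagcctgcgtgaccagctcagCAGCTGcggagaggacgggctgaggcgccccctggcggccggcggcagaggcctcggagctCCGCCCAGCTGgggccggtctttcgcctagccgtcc
Unc5a site, chr13:54956166-54956315, plus strand: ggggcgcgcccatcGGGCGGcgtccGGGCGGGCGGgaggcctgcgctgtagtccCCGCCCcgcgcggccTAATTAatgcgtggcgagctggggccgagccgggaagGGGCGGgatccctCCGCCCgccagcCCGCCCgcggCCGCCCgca
Robo3 site, chr9:37420786-37420935, plus strand: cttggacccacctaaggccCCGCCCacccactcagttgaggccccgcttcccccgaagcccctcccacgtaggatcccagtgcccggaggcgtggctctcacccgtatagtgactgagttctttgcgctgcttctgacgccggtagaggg
Sema5b site, chr16:35587996-35588145, plus strand: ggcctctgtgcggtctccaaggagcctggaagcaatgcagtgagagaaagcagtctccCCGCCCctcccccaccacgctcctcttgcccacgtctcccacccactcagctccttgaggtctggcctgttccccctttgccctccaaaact
The Ephb2 site lay in an intron 80.2 kb from the nearest TSS and had signals of 134 in replicate 1 and 72 in replicate 2. The Sema3b site was intergenic, 3.60 kb upstream, with signals of 114 and 89. The Unc5a site, in an intron 6.83 kb from the TSS, had signals of 121 and 67 and held 8 matches to the GC box GGGCGG and 1 to TAATTA. The intronic Robo3 site, 9.27 kb from the TSS, had signals of 114 and 67, and the intronic Sema5b site, 46.5 kb from the TSS, had 115 and 65. All 5 held at least 1 GC box, and 4 of them had a G+C content above 65%.

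Nearly all of these genes had an open start site. A TSS peak was present in both replicates at 57 of the 64 members (89.1%), against 65.5% of all protein-coding genes. By replicate, 60 members (93.8%) were open in replicate 1 and 58 (90.6%) in replicate 2, a mean of 92.2% ± 2.21 (SD, n = 2 replicates), against 68.7% ± 1.05 for all genes. For genes in the same deciles of CpG ratio (observed over expected within 500 bp of the first start) the share open in both replicates was 86.0%. In CpG decile 5 and above 54 of 56 members were open in both replicates, and in the lower deciles 3 of 8 were, namely Sema3a, Sema3b and Sema4a. The ratio was taken at the first start, whereas Sema3a and Sema4a were open in both replicates only at a start downstream of it. Their CpG decile is therefore not that of the open start. No TSS peak was found in either replicate for 3 members, Plxnb3, Robo4 and Unc5cl, against 28.1% of all genes. In 1 replicate only, a peak was found for 4 members, Epha10, Epha8, Robo2 and Sema3g, against 6.44% of all genes.

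The members' open start sites were ordinary or weak in signal among open ones. The percentile of a gene's strongest TSS peak, among all genes with a TSS peak in that replicate and averaged over both replicates, had a median of 43.6 over the 57 open members and of 54.1 over all genes open in both replicates. Of the 57, 23 reached the 50th percentile, 7 the 75th, and 10 lay below the 25th. The same counts over all open genes were not taken, so these describe the members only. The median percentile of the CpG decile a member belonged to was exceeded by 15 of the 57 members and not reached by 42. Among plexins and neuropilins it was exceeded by 1 of 10 open members, among netrins and their receptors by 2 of 11, in the Slit and Robo families by 1 of 5, among Eph receptors by 3 of 12 and among semaphorins by 8 of 19. Across the 57 genes the percentiles of both replicates had a Spearman correlation of 0.73, and the CpG ratio and the mean percentile one of 0.48. These are descriptions across genes, which are not independent replicates.

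**Figure D1:**
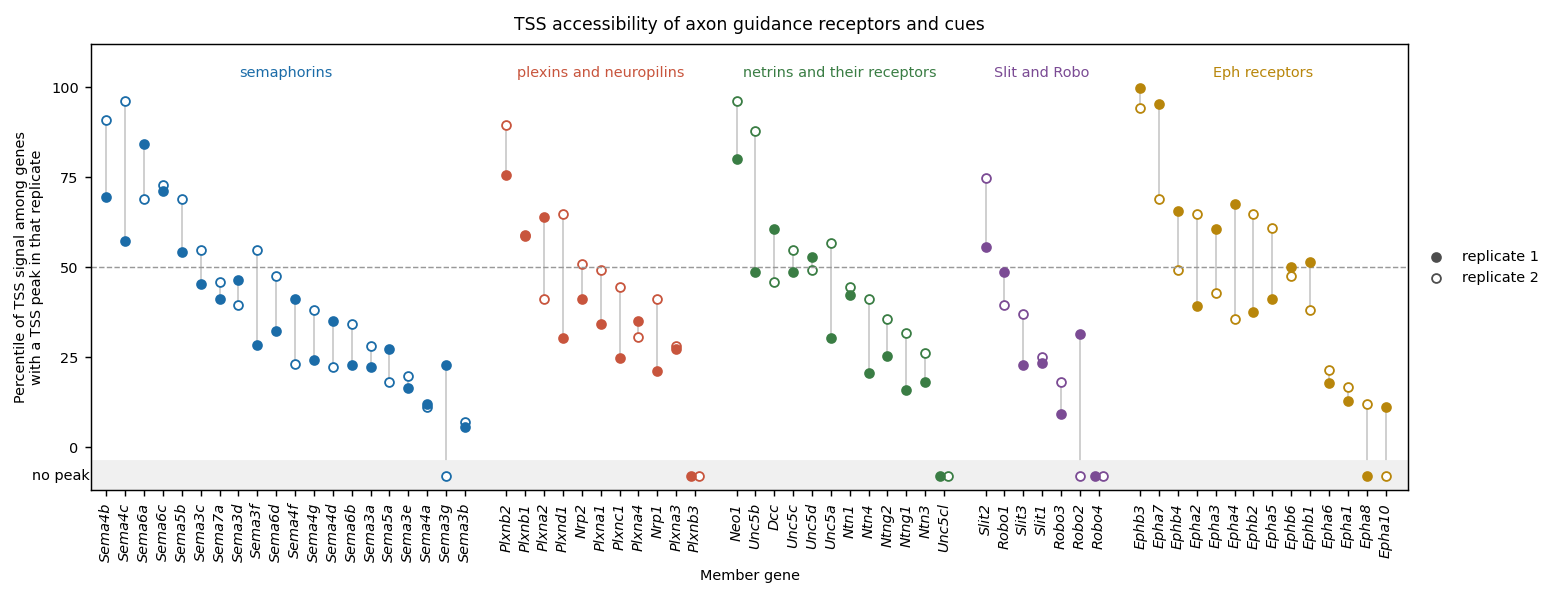
Percentile of the strongest TSS peak of each member among all genes with a TSS peak in that replicate, in replicate 1 (filled) and replicate 2 (open circles), by family. Ephb3, Neo1 and Plxnb2 lie high in both replicates, Sema3b and Sema4a low in both, and the 7 members in the grey band lacked a peak in 1 or both replicates.

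**Figure D2:**
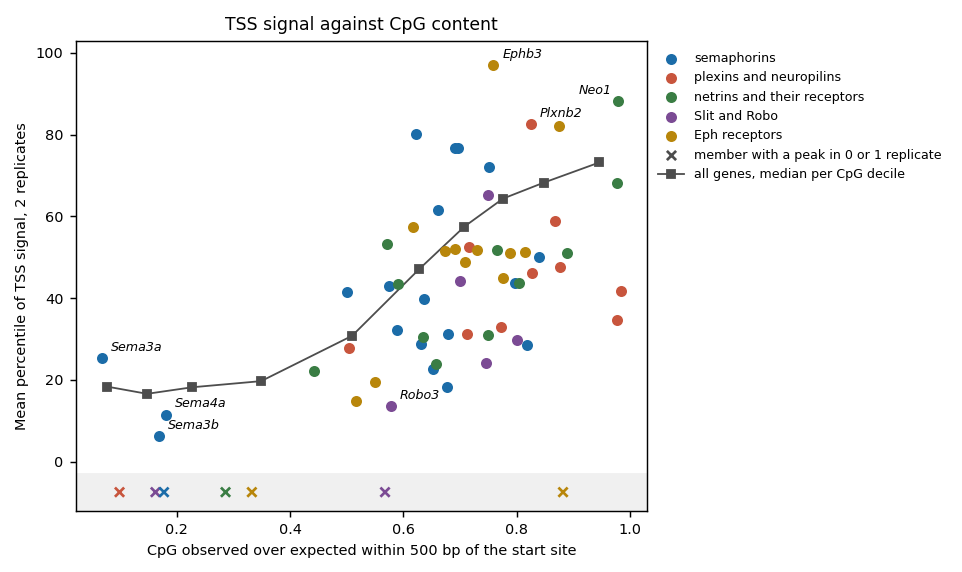
Mean percentile of the strongest TSS peak against the CpG ratio of the 1 kb around the first start, for members by family. Squares give the median of all open genes in each CpG decile. Of the 57 open members 42 lie below the value of their decile, and 4 of the 7 members marked by crosses have a CpG ratio under 0.3.

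The semaphorins are cues that are secreted or membrane-bound and mostly repel axons. All 20 had a TSS peak in replicate 1 and 19 in replicate 2, with Sema3g the exception. Genes of like CpG content, by the ratio at the first start, were open in 79.3% of cases in replicate 1 and 80.3% in replicate 2. The strongest start sites belonged to membrane-bound semaphorins. Sema4b had signals of 124 in replicate 1 and 90 in replicate 2 (mean percentile 80.2). Sema4c had 117 and 95 (76.7), and Sema6a, which binds A-type plexins, had 131 and 78 (76.7). The weakest was Sema3b, with signals of 29 and 20 (6.24), followed by Sema4a with 48 and 30 (11.5). These 2 genes had the lowest percentiles of the family in both replicates among members open in both. Among the secreted class 3 genes Sema3c had the highest percentile, 50.05, with signals of 108 and 71, and it was 43.0 at Sema3d, 41.6 at Sema3f, 25.3 at Sema3a and 18.1 at Sema3e. The remaining semaphorins with open starts lay between 22.7 at Sema5a and 72.1 at Sema6c. Sema3g had a signal of 75 in replicate 1, and its nearest peak in replicate 2 lay 2055 bp away with a signal of 37.

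Some semaphorins differed between start sites. Of the 64 members, 18 had more than 1 annotated TSS cluster (starts more than 1 kb apart), against 4586 of all 21755 genes. At least 2 clusters were open in both replicates at 6 of these 18 members (9.38% of the 64). They were so at 971 of the 4586 genes (4.46% of all genes). The 6 members were Sema4b, Sema6a, Sema6d, Ephb3, Ntn1 and Ntng1, and none had more than 2. Sema6d opened more strongly at an internal start, 520 kb downstream of the first, with signals of 93 and 67 there and of 40 and 38 at the first. Sema4b had 116 and 70 at a start 11.6 kb downstream, near the 124 and 90 of its first. Sema6a had 71 and 34 at a start 35.5 kb downstream of its first. At Sema3a, which encodes a secreted repellent of many sensory and motor axons, the upstream start had no peak in replicate 1 and a signal of 19 in replicate 2, whereas the start 2.53 kb downstream had 74 and 53. Sema4a was likewise closed in both replicates at its first start and open 2.08 kb downstream.

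Plexins are the signalling receptors of semaphorins, and neuropilins are the ligand-binding co-receptors for the secreted ones. Here 10 of 11 (90.9%) were open in both replicates, against 88.7% at like CpG content and 65.5% of all genes. Plxnb2 had signals of 127 in replicate 1 and 89 in replicate 2 (mean percentile 82.5), Plxnb1 had 118 and 73 (58.9), and Plxna2 had 121 and 63 (52.6). Nrp2 had 104 and 69 (46.1) and Nrp1 had 71 and 63 (31.1), so the Nrp2 start ranked above that of Nrp1 in both replicates. The other plexins with open starts lay between 27.7 at Plxna3 and 47.7 at Plxnd1. Plxnb3 had no peak within 15 kb of its start in either replicate, the nearest lying 17157 bp away in replicate 1 and 15397 bp away in replicate 2. It had a CpG ratio of 0.099, and Plxna3, 557 kb away on the same chromosome, was open with 84 and 53 and a CpG ratio of 0.505.

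Among the netrin cues and receptors 11 of 12 (91.7%) were open in both replicates, against 91.2% at like CpG content and 65.5% of all genes. Neo1, the netrin and repulsive-guidance-molecule receptor neogenin, had the strongest start of the family, with signals of 129 in replicate 1 and 95 in replicate 2 (mean percentile 88.1). Unc5b, which mediates repulsion by netrin, had 111 and 88 (68.2), and Dcc, the main attractive netrin receptor, had 119 and 66 (53.3). Ntn1, the secreted netrin of the floor plate, was open at both annotated starts, with 80 and 48 at the first and 105 and 65 at the start 14.0 kb downstream. The downstream Ntn1 start was the stronger in both replicates. The membrane-anchored netrin-G1 gene Ntng1 had 58 and 56 at its first start and 52 and 50 at the next, 1.01 kb away. The netrin and netrin-G genes lay between 22.1 at Ntn3 and 43.4 at Ntn1, and the receptors Unc5a, Unc5c and Unc5d between 43.6 and 51.7, the lowest receptor and the highest cue thus differing by less than their spread over replicates. Unc5cl had no peak within 11 kb in either replicate.

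The Slit and Robo families had the lowest share of open starts among the families, 5 of 7 (71.4%) in both replicates. It was 83.1% at like CpG content and 65.5% over all genes. The share rests on 7 genes, and Robo2, described below, missed the count by the position of a peak. Slit2 had signals of 116 in replicate 1 and 81 in replicate 2 (mean percentile 65.3), Robo1 had 111 and 62 (44.1), and Slit3 had 75 and 60 (29.9). Robo4, which acts mainly in endothelium, had no peak or hotspot at its start, and its nearest peaks lay 4470 bp away in replicate 1 and 3970 bp away in replicate 2. Of the 8 endothelial markers, Cdh5, Emcn, Tek and Tie1 lacked a peak at the start in both replicates. Kdr had signals of 92 and 59, and Cldn5 had 32 and 24. Esam had a peak in replicate 2 only, with a signal of 29, and Pecam1 in replicate 1 only, with 12. Robo3, which sets midline crossing of commissural axons and ends 0.93 kb from the end of Robo4 on the opposite strand, was open with weak signals of 40 and 42 (13.6). Robo2 had a signal of 92 in replicate 1, and in replicate 2 its nearest peak, with a signal of 60, lay 504 bp from the start, just past the 500 bp limit. Hotspots, the broader accessible regions in the deposited lists, covered the Robo2 start in both replicates.

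The Eph receptor tyrosine kinases included the strongest start of all members, Ephb3, with signals of 143 in replicate 1 and 93 in replicate 2 (mean percentile 97.1). Its second start, 6.34 kb downstream, had 107 and 64. Epha7 followed with 137 and 78 (82.2), and Ephb4, better known from vessels, had 122 and 68 (57.5). Of the 14, 12 (85.7%) were open in both replicates, below the 92.4% at like CpG content and above the 65.5% of all genes. Of these 12, 7 lay between 44.8 and 52.0, namely Epha2, Epha3, Epha4, Epha5, Ephb1, Ephb2 and Ephb6. Epha8 had a signal of 32 in replicate 2 and no peak within 5 kb in replicate 1, although its CpG ratio was 0.882. Epha10 had a signal of 46 in replicate 1, and in replicate 2 a peak with a signal of 69 lay 597 bp from its start. Hotspots covered the Epha10 start in both replicates, so that Robo2 and Epha10 missed the count by the position of a peak. The weakest starts open in both replicates were Epha1, with 50 and 40 (14.8), and Epha6, with 63 and 46 (19.6).

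Regions next to the starts were open more often than at other genes. Consensus sites, which are merged regions holding a peak of each replicate, lay between 500 and 2500 bp of the nearest start at 45 members (70.3%), against 32.3% of all genes, and against 38.7% for genes of like CpG content. The mean was 1.91 such sites per member, against 0.56 over all genes and 0.68 at like CpG content. Sema6a had 7, Ntng2 had 6, and Epha4 and Sema6b had 5 each. Every family had a higher mean than its genes of like CpG content, the lowest being 1.57 against 0.65 in the Slit and Robo families and the highest 2.36 against 0.73 in plexins and neuropilins.

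Distal accessible sites, over 2.5 kb from every protein-coding TSS with the nearest TSS within 100 kb, numbered 322 at the members out of 44709 consensus sites of that kind. At least 1 was found at 58 members (90.6%), against 56.5% of all genes, and at least 10 at 10 members (15.6%), against 3.84%. The count of 10 of the 64 members fell to 4 of 64 within 50 kb, where 1.95% of all genes reached 10 sites. It fell to 2 of 64 with an overlap of at least 75 bp, against a share of 1.82% of all genes. With the TSSs of all annotated genes it fell to 4 of 64, against a share of 1.01%. None of these shares was matched for territory, defined below. The mean was 5.03 sites per member and 2.06 per gene over all genes, with a median of 4 against 1. The territory of a gene, the sequence nearest to its starts within that limit, was longer at the members, with a median of 126 kb against 46.6 kb. For genes in the same deciles of territory the mean was 3.56 sites. The 25 members with territories in the top decile had 5.56 sites each, against 5.59 for all genes of that decile, and 8 of the 25 (32%) exceeded that mean, against 38.2% of all genes of the decile. The 39 members with smaller territories had 4.69 each, against 2.26, and 30 of these 39 (76.9%) exceeded the mean of their decile, against 33.8% of all genes in those deciles.

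**Figure D3:**
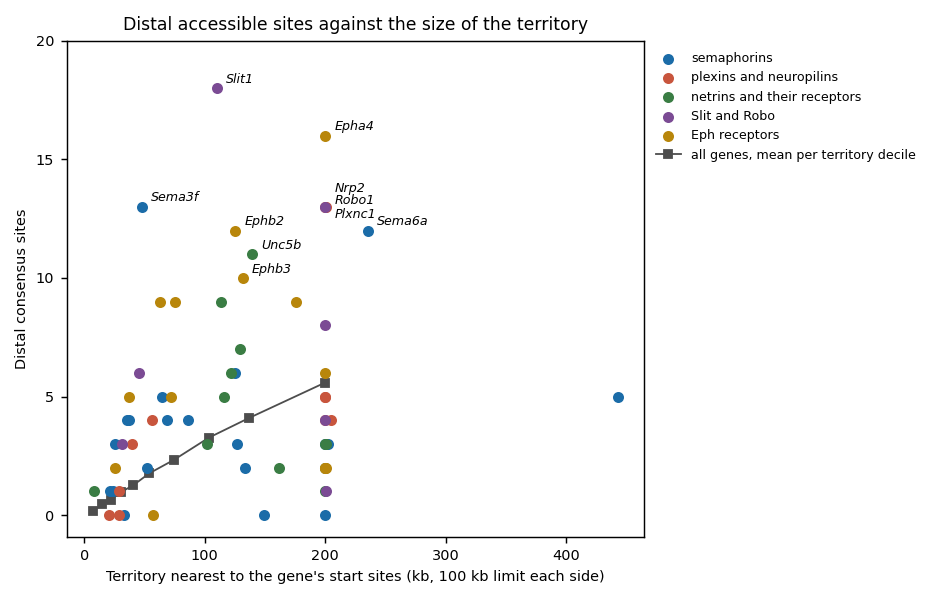
Distal consensus sites per member against the length of its territory in kb, by family, with the mean of all genes in each territory decile as squares. Slit1 with 18 sites and Sema3f with 13 lie far above the line, whereas the 25 members with the longest territories scatter around it.

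Counting the peaks of each replicate separately gave a smaller surplus. In replicate 1 the members had 14.1 distal peaks each, against 13.2 at genes of like territory, and in replicate 2 they had 26.7 against 22.2. The ratio was 1.063 and 1.203 by replicate, a mean of 1.13 ± 0.10 (SD, n = 2 replicates). Sema6d alone held 199 of the 1706 member peaks of replicate 2, and 18 of the 901 of replicate 1. The ratio to like territory was not taken without it, so the replicate 2 value rests partly on 1 gene. The members' distal peaks were stronger within their lists: 79.9% of 901 peaks in replicate 1 had at least the median signal of the list, against 53.8% of 149609 for all genes, and 56.4% of 1706 in replicate 2, against 48.9% of 259384. With 1 median per gene, the shares in replicate 1 were 88.5% of 61 members and 70.5% of 15759 genes. In replicate 2 they were 75.8% of 62 members and 63.2% of 16339 genes. A peak of replicate 2 overlapped 36.6% of the members' distal peaks of replicate 1 (95% Wilson interval 33.5 to 39.8%), against 31.5% for all genes. In the other direction the share was 20.6% (18.7 to 22.6%), against 19.1% for all genes. With the stronger 50% of peaks of each list the order turned for replicate 1, at 43.1% for members against 50.5% for all genes, and with an overlap of at least 75 bp the shares of replicate 2 were both 13.7%. These intervals cover counting error only, and neighbouring peaks are not independent.

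By family, Slit and Robo genes had the most distal sites, a mean of 7.57 per gene against 3.98 at like territory, and Eph receptors had 6.36 against 3.70. Plexins and neuropilins had 4.73 against 3.56, netrins and their receptors 4.42 against 4.06, and semaphorins 3.75 against 3.01. The peaks of each replicate gave a ratio to like territory of 1.25 in both replicates for Slit and Robo genes. For Eph receptors it was 1.11 in replicate 1 and 1.21 in replicate 2, and for plexins and neuropilins 0.957 and 1.13. For netrins and their receptors it was 1.03 and 1.05, and for semaphorins, with Sema6d included, 1.02 and 1.35. Slit1, a midline repellent, had the most of any member, 18 sites, of which 14 lay within the gene and 4 upstream. Its strongest signals in replicate 1 were 117 at 27.1 kb, 113 at 44.4 kb and 101 at 45.8 kb downstream of the start. The start itself ranked low, with signals of 76 and 50 (mean percentile 24.2). Robo1, a Slit receptor, had 13 sites, 6 upstream and 7 within the gene, whereas Robo2 had 1. Slit3 had 4 sites by this rule, and 27 were counted over its whole span, whatever the nearest start and without the 100 kb limit.

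Epha4, a receptor for both classes of ephrin, had 16 sites. A run of 7 lay between 11.1 and 21.05 kb inside the gene, with signals of 117 and 43 at the strongest. Ephb2 had 12 sites, of which 9 lay more than 75 kb downstream of its start, inside its long introns. The strongest distal site of any member, shown above, was among these. The neighbouring Epha8, 93.4 kb away, had 9 distal sites beside a start open in replicate 2 only. Ephb3 had 10 sites, all of them intergenic.

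Among the semaphorins, Sema3f had 13 sites in a territory of only 48.1 kb, a density of 27.0 per 100 kb against 3.96 over all members and 2.92 over all genes. Of these, 8 lay upstream between 13.5 and 28.6 kb and 5 lay within the gene between 5.39 and 8.24 kb. Sema3b, the neighbour 72.3 kb away, had 3 sites, and 2 of them were among the 10 strongest distal sites of the members. Sema6a had 12. Nrp2 had 13 sites, 11 within the gene, and Plxnc1, which binds Sema7a, had 13, of which 10 were upstream. Unc5b led the netrin receptors with 11 sites, followed by Unc5a with 5, and the netrin-G2 gene Ntng2 had 9. No distal consensus site was assigned to Ephb6, Plxna3, Plxnb3, Sema3c, Sema3d or Sema4g. Plxna3 and Plxnb3 also had no distal peak of either replicate. They lie on the X chromosome, where peaks were sparse, in territories of 20.3 and 28.8 kb, and the part of either in their values was not tested.

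**Figure D4:**
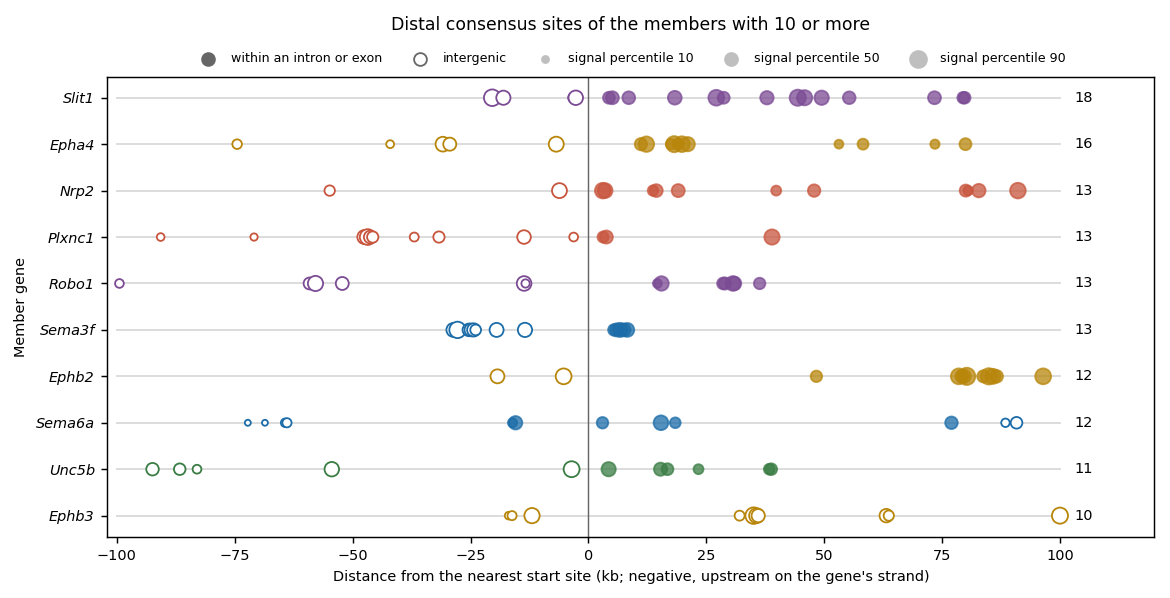
Positions of the distal consensus sites of the 10 members with 10 or more, in kb from the nearest start on the gene's strand, with filled circles within a gene, open circles between genes, and the area set by the mean percentile of signal. Sites of Slit1 and Nrp2 lie mostly inside the gene, those of Plxnc1 mostly upstream, and 9 of the 12 Ephb2 sites lie past 75 kb.

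The remaining sites among the 10 strongest had lower ranks. They were an intergenic site 6.14 kb upstream of Sema4a with signals of 97 and 68, an intergenic site 20.4 kb upstream of Slit1 with 92 and 70, and an intronic site 23.5 kb inside Plxna1 with 98 and 63. An intergenic site 35.0 kb from the Ephb3 start had 111 and 55, and an intronic Sema3b site 3.16 kb from the start had 94 and 64. Sema3b and Sema4a, the 2 semaphorins with the weakest open starts, thus each had a distal site with a higher signal than the start in both replicates. Over the 57 open members the TSS percentile and the number of distal consensus sites had a Spearman correlation of 0.20, a description across genes.

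The 322 sites lay in introns in 55.0% of cases, in exons in 3.11% and between genes in 41.9%, against 42.9%, 5.45% and 51.7% of all distal consensus sites. Their median distance from the start was 25.7 kb against 23.0 kb, their median G+C content 53.3% against 52.0%, and repeats covered 8.40% against 11.4% of their bases. The 10 members with the most sites held 131 of the 322 (40.7%). Because many guidance genes are long, sites inside them could be left out by the 100 kb limit or by a nearer start of another gene. The count over whole gene spans used neither rule. Counted over whole gene spans, the 64 members held 366 consensus sites over 2.5 kb from a start, led by Slit3 with 27, Slit1 with 21, Robo1 with 20, Ephb1 with 19 and Dcc with 17, although the distance rule gave Dcc 1. This count was not scaled by length and has no value over all genes beside it. In the same order these genes were 587, 143, 383, 433 and 1097 kb long, against a median of 99.3 kb over the members.

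Short motifs were searched on both strands in the 150 bp around the midpoint of each distal site. The general E-box CANNTG, the class of site that basic helix-loop-helix factors bind, was held by 58.4% of the members' sites and 59.6% of all sites. The E-box CAGCTG, which is one form of CANNTG and is therefore counted in both, was held by 19.6% against 14.5%. The homeodomain core TAATTA was held by 5.28% against 3.07%, and the SOX motif ACAATG by 12.7% against 9.09%. The SOX motif ACAAAG was at 15.5% against 16.0%, and the GC box GGGCGG of SP and KLF factors at 11.8% against 9.27%. CCAAT was at 12.4% against 17.7%, and the RFX motif GTTGCNA at 8.07% against 7.37%. The POU octamer-like motif was at 1.55% against 2.46%, the ETS motif CCGGAAG at 1.24% against 1.33%, and the full nuclear factor I palindrome at 0% against 0.049%. A match is a run of letters and no measure of binding. In the 250 bases before RefSeq starts, GGGCGG was held by 75% of the 60 promoters of members open in both replicates, against 58.1% of the 14139 promoters of all coding genes open in both. In the same promoters CCAAT was at 26.7% against 34.8%, the ETS motif at 3.33% against 12.2%, CAGCTG at 10% against 12.1% and the RFX motif at 10% against 8.11%.

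The replicates differed at some members more than at others. Over all members replicate 2 had 1.89 times the distal peaks of replicate 1, 1706 against 901, and over all genes 1.73 times. Sema6d had 199 distal peaks in replicate 2 and 18 in replicate 1, and without it the ratio over members was 1.71, an alternative chosen after seeing the data. The Sema6d peaks of replicate 2 had signals between 1 and 20 with a median of 5, and those of replicate 1 between 9 and 63 with a median of 28. Only 5 of them in each replicate overlapped a peak of the other. Ntng1, Sema3e, Robo4 and Epha3 also had over 5 times as many distal peaks in replicate 2, with 50 against 6, 64 against 9, 21 against 3 and 90 against 17. Fewer were found in replicate 2 at 15 of the 64 members, a share close to that over all genes, 5179 of 21755. Among these members were Plxna2 with 15 against 30 and Sema3c with 1 against 4.

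**Figure D5:**
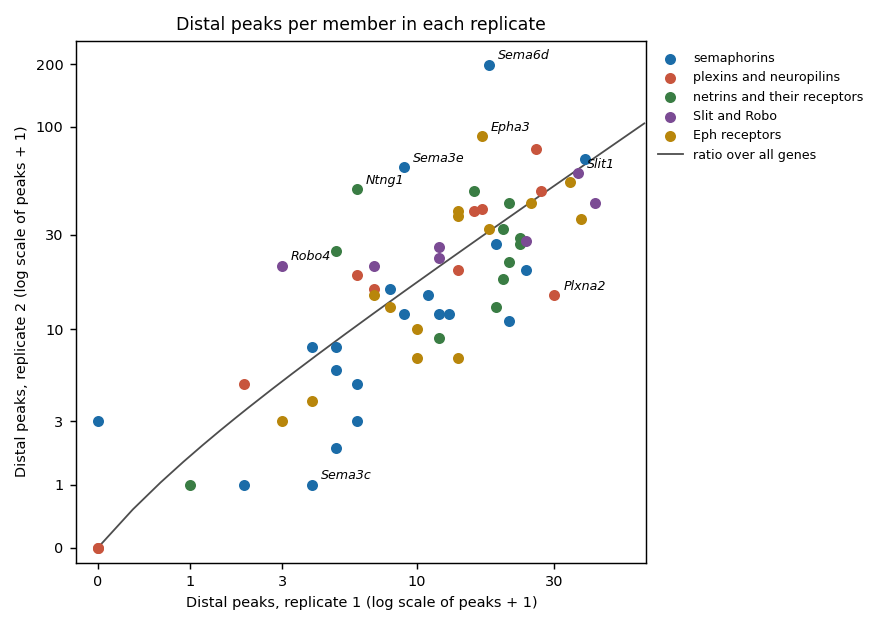
Distal peaks per member in replicate 2 against replicate 1 on log axes of peaks + 1, by family, with the ratio over all genes (1.73) as a line. Sema6d, with 199 against 18, lies farthest above the line.

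Other genes of these pathways were open at least as often, and their lists were chosen by role. Among ephrins, the ligands of Eph receptors, 8 of 8 were open in both replicates, against 95.6% at like CpG content and 65.5% of all genes. They had 5.13 distal consensus sites each, against 2.10 at like territory. Efnb2 had signals of 130 and 99 and 11 sites, Efna5 had 10 sites, and Efnb3 had none. Among 16 other cues and co-receptors 15 (93.8%) were open in both, against 88.9% at like CpG content and 65.5% of all genes. Flrt1, which encodes an adhesion molecule, was open in replicate 1 only with a signal of 40. The mean of the 16 was 6.50 sites against 3.996 at like territory. Rgma, a ligand of neogenin, had signals of 117 and 88 and 18 sites, and Dag1, the dystroglycan gene, had signals of 139 and 97. Of 40 intracellular effectors, such as collapsin response mediators and kinases that act on the cytoskeleton, 40 were open in both replicates. The share was 90.8% at like CpG content and 65.5% of all genes, and the effectors had a median TSS percentile of 60.1. They had 6.08 sites against 3.66, led by Chn1 with 27 and Tiam1 with 23.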

How the data were processed

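DNase-seq was measured in 2 replicates of 1 group, so no test was possible and no p-value is given. The authors deposited peaks with a signal value (no stated normalization) and hotspots with a −log10 q-value between 1.30 and 100, for each replicate alone on mm10, per the file records. Names of the aligner and caller were not given in the sources used here. Read depth is unknown, because the lists hold no read totals.

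Start sites of protein-coding genes came from the GENCODE vM21 basic set, and sequence came from GRCm38.p6 and RefSeq. Peaks were merged where they shared at least 1 bp, and a distal site was assigned by its midpoint to the nearest start. Deciles of CpG ratio and of territory gave the values for like genes. Overlap, merging and distance functions were tested on simulated data (Python 3.11.15, pandas 2.3.3, pysam 0.24.0). Members named in full were the 3 highest TSS percentiles and 2 highest site counts per family, every member not open in both replicates, the 10 strongest distal sites and members with more than 1 open TSS cluster, and other members named in the text were chosen after their values were seen. The members and lists were chosen with earlier results of these data known.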

Additional observations from a re-analysis of the deposited data

How the results depend on the processing

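Of 65 recomputed counts, means and shares, 45 stayed within 1.5 times the reported count, within its interval or within the spread between replicates. The number open in both replicates ran between 53 and 59 under the alternatives that keep both, and 58 and 60 were open in the single replicates. With a 150 bp window 6 members had no TSS peak, and with 1000 bp, hotspots, or the TSSs of all transcripts 2 had one in 1 replicate only. Leaving out 1 replicate put the number with no TSS peak between 4 and 6 and the median percentile between 38.3 and 44.4. With 1 replicate, where every distal peak counts, the mean was 13.6 to 23.1 sites per member, 36 to 44 members had at least 10 (20.5 to 29.1% of all genes), and the density was 10.7 to 18.2 per 100 kb (9.05 to 14.6 over all genes). At least 10 sites were found at 4 members within 50 kb (1.95% of all genes), 2 with an overlap of 75 bp (1.82%) and 4 (1.01%) with the TSSs of all annotated genes, which also lowered the mean to 2.73 against 1.03 over all genes. An overlap of 75 bp lowered the shared part to 25.5% of replicate 1, against 23.3% for all genes, and to 13.7% of replicate 2, the same as for all genes (13.7%). With the stronger 50% of peaks it was 43.1%, against 50.5% for all genes, and 34.4%, against 33.9%, so that for replicate 1 the members then lay below all genes; the cause was not tested. In a 300 bp window CCAAT was at 30.7% against 31.9% and TAATTA at 7.76% against 7.001%. No paired analysis was possible because there was 1 group. With 2 replicates and unknown depth, a missing peak is not shown to be closed chromatin.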
